A study of Homo sapiens with 6 samples.

Results

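Chromosome 19 carries the largest concentration of C2H2 zinc finger genes in the human genome, and 155 of its ZNF genes were followed in U2OS cells treated with NMS-873. Members were the rows of the deposited table that lie on chromosome 19, carry a symbol of ZNF followed by digits only, and average 50 or more normalised counts over the 6 libraries. A normalised count is the number of reads in a gene divided by a size factor of the library. Of 57820 annotated genes, 249 had such a symbol and chromosome, 187 of these had a mean of at least 10, 21 had no read, and 155 reached 50. The rule used the level over both treatments and not the change between them.

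U2OS is an established human osteosarcoma cell line. The compared groups were 3 libraries from cells given 5 µM NMS-873, dissolved in DMSO, and 3 from cells given 0.05% DMSO, both for 4 h, and no genetic change separated them. The compound binds VCP (also called p97) at an allosteric site and inhibits it; VCP is an ATPase that extracts ubiquitylated proteins from membranes and complexes. All libraries came from 1 cell line, and whether the libraries of a treatment were separate cultures is not stated, so p-values reflect no more than the variation among these libraries, which may be technical. The spread behind the SE and p-value of a gene came mostly from genes of similar level and less from its own values.

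Most C2H2 zinc finger proteins bind DNA through an array of fingers, each a small fold held together by zinc. Many of those on chromosome 19 also carry a KRAB domain at the amino end, which recruits the corepressor TRIM28 and through it the histone methyltransferase SETDB1, HP1 proteins and further silencing factors. The family grew by tandem duplication, so its genes lie in clusters of related copies, and many members are known to bind and silence transposable elements.

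Libraries held 21132311 to 22488952 reads in genes. Within the NMS-873 group, replicate 1 stood apart from the other two (chi-square per degree of freedom 7.43 and 7.9, against 1.79 between replicates 2 and 3), and within DMSO replicate 3 did (3.52 and 3.58, against 1.52), so counts of calls are also given without each of these. Among markers of the cell line, VIM, COL1A1, SPARC and CDH2 had at least 6071 normalised counts in every library, RUNX2 had 109 to 238 (mean 228 with DMSO and 117 with NMS-873), COL1A2 had 8.27 to 14.4 and TWIST1 was at 0 reads. The 7 cell line markers summed to 147017 to 150615 normalised counts with DMSO and 126114 to 131799 with NMS-873, with no overlap, and COL1A1 had means of 48278 and 35845. Of the markers of other cell types ALB was at 0 reads, PTPRC, KRT5 and CDH1 stayed at or below 42.1 normalised counts, EPCAM had 65.2 to 88.4, CD34 had 61.7 to 99.8 and SYT1 had 47.5 to 70.5. The 7 markers of other cell types summed to 267 to 300 with DMSO and 244 to 278 with NMS-873. The part of either marker list in the results was not tested.

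As a group these genes were expressed at low levels. Their mean normalised counts ran from 51.7 to 4292 with a median of 207, against a median of 711 for the other 11924 genes with a mean of at least 50. Per length, the median member was at 1.88 FPKM with DMSO (reads per kilobase, scaled by the library's size factor) and the other genes at 6.73 FPKM. The members with the highest FPKM in DMSO were ZNF146 at 43.5 and ZNF542 at 30.5, followed by ZNF404 at 13.1 and ZNF45 at 10.4.

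With NMS-873 the family split. Of the 155 members, 42 (27.1%) rose, 34 (21.9%) fell and 79 did not pass an adjusted p of 0.05 in limma, a linear model on log2(normalised count + 1) fitted over all genes with a mean of at least 10. Among all 12079 genes with a mean of at least 50 the same rule called 17.3% higher and 35.4% lower (52.7% either way), and among all 14889 tested 14.9% higher and 33.0% lower (47.9% either way). The median log2 fold change of the members was 0.04, with the middle of the distribution between -0.18 and 0.21, while the median over all genes tested was -0.10 and over those with a mean of at least 50 was -0.09. In bulk RNA, fewer cells expressing a gene and less RNA per cell cannot be told apart. Most changes were small: 9 members rose and 7 fell by at least 1.5-fold (background 3.87% and 5.56% of genes with a mean of at least 50), and 1 rose and 1 fell by at least 2-fold. All 3 NMS-873 libraries lay above all 3 DMSO libraries for 46 members (29.7%) and below them for 37 (23.9%), where 18.7% and 39.3% of genes with a mean of at least 50 did so. Without NMS-873 replicate 1 the calls were 46 higher and 33 lower, and without DMSO replicate 3 they were 43 and 31.

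The balance of rises and falls depended on how the libraries were scaled. The deposited values are scaled to spike-in RNA. Scaled this way, the typical gene was slightly lower with NMS-873. When size factors were taken from the annotated genes instead, the median of all genes tested moved by about that amount to 0.00, and 62 members were higher and 19 lower, against 29.9% and 22.0% of genes with a mean of at least 50. After quantile normalisation 65 were higher and 19 lower (background 23.5% and 31.7%), and with equal totals 46 and 33 (background 19.4% and 39.1%). The 42 members called higher were called higher under all 4 scalings, and 16 of the 34 called lower were called lower under all 4. No member called in either direction was called in the other direction under any of the 18 settings tried.

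**Figure D1:**
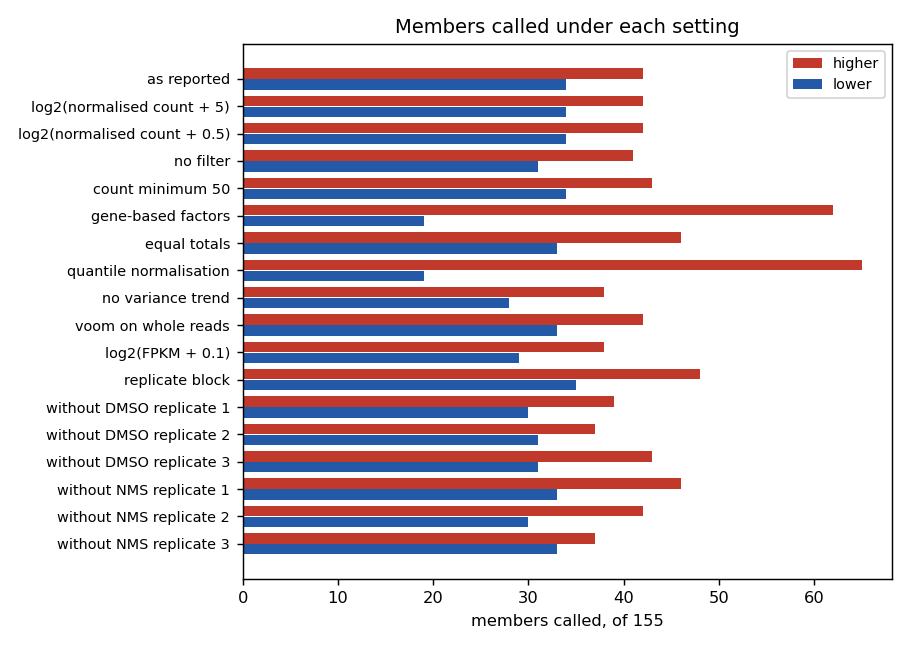
Number of the 155 members called higher (red) and lower (blue) in limma at an adjusted p under 0.05, for the reported analysis and each other setting; bars start at 0. Gene-based factors and quantile normalisation give 62 and 65 higher calls and 19 lower calls each, against 42 and 34 as reported.

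Beside genes of similar level, members with 100 to 500 counts had a larger share of higher calls and a smaller share of lower calls; this difference was not tested. Between 200 and 500 normalised counts, 20 of 59 members (33.9%) were higher and 7 (11.9%) lower, with a median log2 fold change of 0.11, while of 2327 other genes in that range 14.5% were higher and 38.9% lower, with a median of -0.12. Between 100 and 200 counts, 11 of 45 members were higher and 8 lower (24.4% and 17.8%), against 11.5% and 38.9% of 1342 other genes. Of the 64 ZNF genes of other chromosomes with 200 to 500 counts, 18.75% were higher and 43.75% lower. Of the 41 with 100 to 200 counts 14.6% and 29.3% were, and of the 33 with 50 to 100 counts 9.09% and 24.2%. Among the 30 members with 50 to 100 counts 1 was higher, ZNF461, and 13 lower (3.33% and 43.3%), near the 7.07% and 35.6% of 1118 other genes, and the median was -0.21 in both. From 500 to 1000 counts 8 of 16 members were higher and 5 lower, against 20.7% and 36.6% of 2378 other genes; of the 36 ZNF genes of other chromosomes in that range 55.6% were higher and 30.6% lower. Of the 5 members with 1000 or more 2 were higher and 1 lower, against 20.6% and 32.5% of 4759 other genes, and 46.9% and 9.38% of 32 ZNF genes of other chromosomes. Across members, log2 fold change and log2 mean count had Pearson r = 0.17 and Spearman rho = 0.24 (n = 155 genes measured in the same libraries, a description).

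ZNF genes elsewhere in the genome and other genes of chromosome 19 were set beside them. The 206 ZNF-number genes of other chromosomes with a mean of at least 50 had 56 rises (27.2%), 62 falls (30.1%) and a median of -0.03. The 662 other chromosome 19 genes had 79 rises (11.9%), 237 falls (35.8%) and a median of -0.10. Of 16 related chromosome 19 zinc finger genes with other kinds of symbol (ZFP, ZSCAN, ZIK1, PEG3 or a ZNF number with a letter; ZFP36 is of another finger class), 2 rose and 4 fell. No test of these differences was made, since genes of a group are not replicates.

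**Figure D2:**
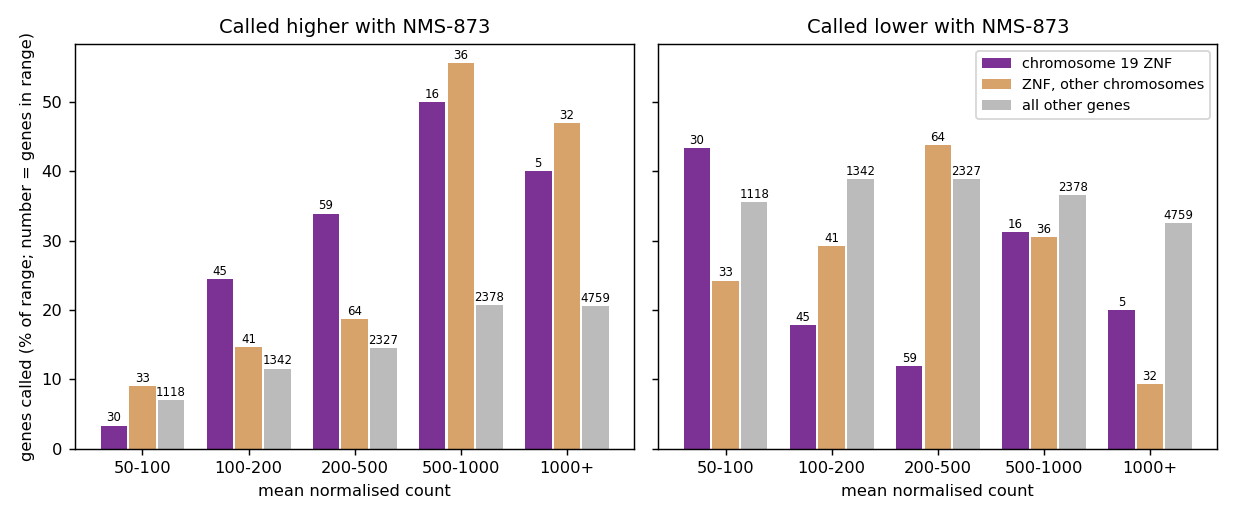
Percent of genes called higher (left) and lower (right) in limma, by range of the mean normalised count, for the chromosome 19 ZNF genes, ZNF genes of other chromosomes and all other genes; the number on each bar is the number of genes in that range, and bars start at 0. Between 200 and 500 counts the members stand at 33.9% higher and 11.9% lower, against 14.5% and 38.9% of all other genes.

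**Figure D3:**
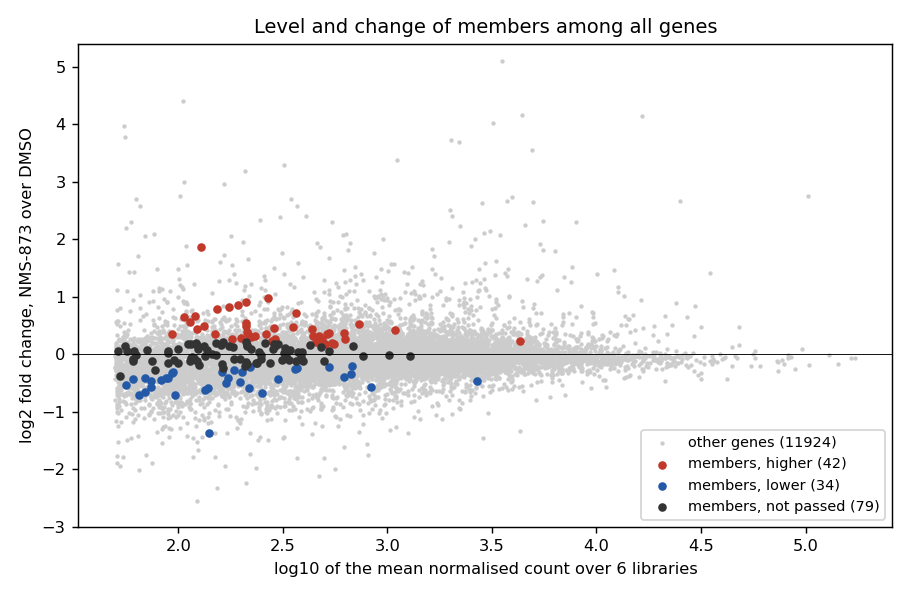
Log2 fold change (NMS-873 over DMSO) against log10 of the mean normalised count for the 155 members, coloured by call, over the 11924 other genes with a mean of at least 50 (grey). Members lie between -1.36 and 1.86, inside the spread of the other genes, and most have low counts.

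The largest rise was that of ZNF555 (ENSG00000186300.7; chromosome 19, 2841433 to 2860482, plus strand, build hg19), a KRAB zinc finger gene with 15 fingers in its longest coding sequence. It had 38.1, 57.0 and 74.4 normalised counts in the DMSO libraries and 200.5, 210.5 and 191 in the NMS-873 libraries. The groups were far apart, and the DMSO libraries differed among themselves by more than the NMS-873 libraries did. The means were 56.5 ± 18.2 and 201 ± 9.57 (SD, n = 3), 3.63-fold higher (1.86 on the log2 scale with an SE of 0.129; adjusted p = 4.76e-33 in limma).

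ZNF555 lies at the p-arm end of the chromosome beside ZNF57 and ZNF77, which are also KRAB zinc finger genes. ZNF77 (2933216 to 2944969, minus strand) had 79.2, 82.7 and 87.3 normalised counts with DMSO and 134, 129 and 127 with NMS-873, with no overlap, and rose 1.56-fold (0.64 on the log2 scale with an SE of 0.125; adjusted p = 3.33e-06 in limma). ZNF57 (2900896 to 2918474, plus strand) had 97.7, 106 and 106 with DMSO and 128, 118 and 108 with NMS-873; its groups also did not overlap, and it did not pass (log2 fold change 0.19, adjusted p = 0.202). ZNF555 and ZNF77 passed in each of the 18 settings.

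The promoters of these 3 neighbours share a feature. ZNF555 was named for its rise, and ZNF57 and ZNF77 after their values were seen, so the choice of genes was not independent of their levels. RefSeq windows from 250 bases before to 50 bases after the start site (build GRCh38.p14) were searched on both strands for CCAAT, the box bound by NF-Y. Overall 35.7% of 27305 windows and 44.2% of the 138 member windows held at least 1, and 1.06% of all windows and 4 of the 138 held 4 or more. Those of ZNF555, ZNF57 and ZNF77 held 5, 4 and 6, and the other member with at least 4 was ZNF317, with 4. Their 250 bases before the start site are printed to show the repeated box, with each CCAAT in capitals; ZNF792, which fell most, is shown beside them with its single box on the opposite strand, which reads ATTGG. The stretches are chr19:2841225-2841474 on the plus strand, chr19:2900678-2900927 on the plus strand, chr19:2944972-2945221 on the minus strand and chr19:34964230-34964479 on the minus strand.
ZNF555: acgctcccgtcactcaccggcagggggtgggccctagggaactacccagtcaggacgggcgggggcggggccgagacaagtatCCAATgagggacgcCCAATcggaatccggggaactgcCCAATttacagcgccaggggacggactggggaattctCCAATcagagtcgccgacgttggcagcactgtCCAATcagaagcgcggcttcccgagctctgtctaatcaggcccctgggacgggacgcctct
ZNF57: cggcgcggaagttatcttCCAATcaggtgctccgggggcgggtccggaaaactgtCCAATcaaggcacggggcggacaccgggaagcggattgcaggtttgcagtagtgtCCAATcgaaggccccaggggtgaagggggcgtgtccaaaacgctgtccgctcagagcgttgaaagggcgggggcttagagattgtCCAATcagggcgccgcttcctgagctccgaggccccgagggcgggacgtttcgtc
ZNF77: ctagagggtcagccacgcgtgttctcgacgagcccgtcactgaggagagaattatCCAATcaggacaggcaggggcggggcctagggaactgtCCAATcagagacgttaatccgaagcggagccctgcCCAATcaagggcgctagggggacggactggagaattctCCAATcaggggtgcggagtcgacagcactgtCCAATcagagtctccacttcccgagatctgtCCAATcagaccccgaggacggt
ZNF792: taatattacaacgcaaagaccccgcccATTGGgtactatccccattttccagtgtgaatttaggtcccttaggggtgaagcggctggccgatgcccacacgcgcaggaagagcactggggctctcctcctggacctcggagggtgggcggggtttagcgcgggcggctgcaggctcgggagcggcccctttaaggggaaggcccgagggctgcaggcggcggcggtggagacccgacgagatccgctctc
All boxes of the 3 neighbours lie on the coding strand; those of ZNF57 and ZNF77 all read CCAATC, as do 3 of the 5 of ZNF555. A match is a run of letters and not a measured binding site. ZNF57 and ZNF317, with 4 boxes each, did not pass the test, and ZNF317 was flat (log2 fold change -0.01, adjusted p = 0.888 in limma).

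ZNF841 had the largest rise after ZNF555. The normalised counts of ZNF841 (52567719 to 52599018, minus strand) were 197, 144 and 205 with DMSO and 371, 350.4 and 346 with NMS-873, 1.97-fold higher (0.98 on the log2 scale with an SE of 0.0905; adjusted p = 3.17e-21 in limma). Its span overlaps that of ZNF432 on the same strand, and ZNF432 did not pass (log2 fold change -0.16, adjusted p = 0.204), so reads from the shared part are uncertain. The neighbour ZNF614 (52516018 to 52533493) was steady within groups, at 602, 601 and 600.4 normalised counts with DMSO and 881, 859 and 848 with NMS-873, and rose 1.43-fold; it was named after its values were seen.

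Near the q-arm end, ZNF419, ZNF460, ZNF773 and ZNF805 rose. ZNF419 (57999079 to 58006048) had 141, 138 and 157 normalised counts with DMSO and 310, 268 and 249 with NMS-873, a 1.89-fold rise. Its neighbour ZNF773 (58011283 to 58029772) had 131, 116 and 129 with DMSO and 246, 199 and 223 with NMS-873, a 1.77-fold rise. These are related copies: 7.48% of the 100-base words in the transcripts of ZNF419 also occur in another gene, most often ZNF773, so a part of their reads cannot be assigned with certainty. ZNF460 (57791419 to 57804937), which shares no such word, had 150, 125 and 136 with DMSO and 209, 264 and 275 with NMS-873 and rose 1.81-fold. ZNF805 (57751973 to 57766503), also without shared words, had 86.4, 76.1 and 117 with DMSO and 158, 146 and 138 with NMS-873 and rose 1.6-fold. None of the 4 had overlapping groups, and the adjusted p in limma was 5.34e-17 for ZNF419, 3.62e-14 for ZNF460, 1.22e-12 for ZNF773 and 5.06e-07 for ZNF805.

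The other large rises were those of ZNF529 and ZNF222. ZNF529 (37025676 to 37096178) had 289, 277 and 257 normalised counts with DMSO and 469, 448 and 444 with NMS-873, a 1.65-fold rise (adjusted p = 2.95e-16 in limma). ZNF222 (44529494 to 44537265) had 117, 112 and 106 with DMSO and 208, 167 and 213 with NMS-873, a 1.74-fold rise (adjusted p = 4.78e-11 in limma). ZNF222 was the 1 member called higher among the 17 of its cluster, and 11.8% of its words are shared with other genes.

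**Figure D4:**
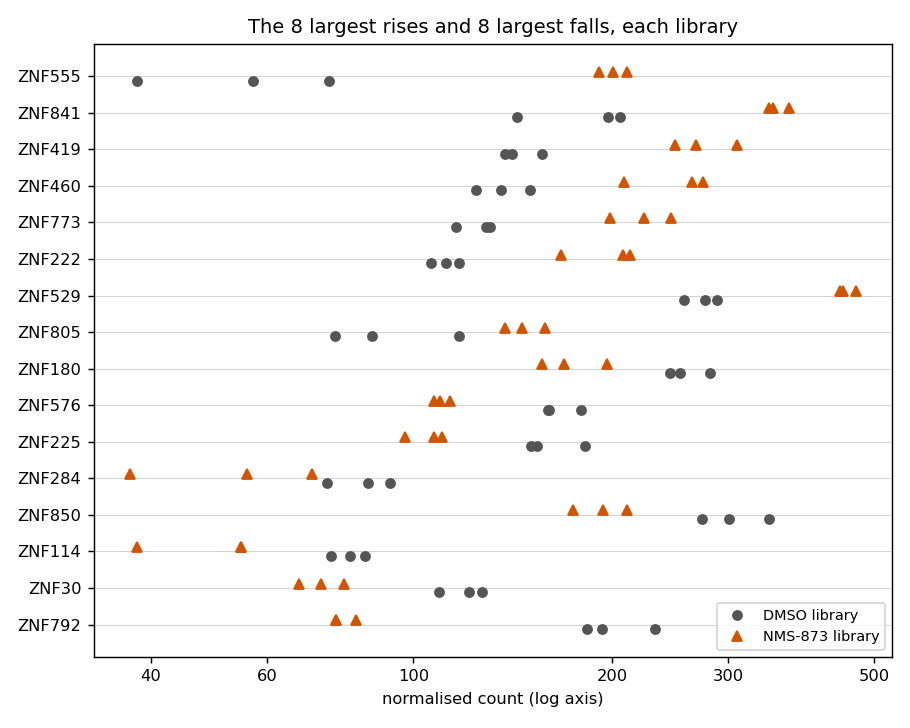
Normalised count in each library (log axis) for the 8 largest rises and 8 largest falls among called members with groups that do not overlap; grey circles are DMSO libraries and orange triangles NMS-873 libraries. For ZNF555 the DMSO libraries spread from 38.1 to 74.4 while the NMS-873 libraries lie between 191 and 210.5, and for ZNF792 the NMS-873 libraries lie between 76.2 and 81.7.

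The largest fall was that of ZNF792 (ENSG00000180884.9; 35447258 to 35454953, minus strand), a KRAB zinc finger gene with 12 fingers. It had 193, 184 and 232 normalised counts with DMSO and 76.2, 76.3 and 81.7 with NMS-873. The means were 203 ± 25.8 and 78.1 ± 3.14 (SD, n = 3), 2.57-fold lower with NMS-873 (-1.36 on the log2 scale with an SE of 0.116; adjusted p = 4.5e-24 in limma). ZNF30 (35417807 to 35436074, plus strand), the next gene of the family, had 121, 109 and 127 with DMSO and 67.2, 72.4 and 78.6 with NMS-873, 1.63-fold lower (adjusted p = 1.2e-06 in limma). The transcripts of neither gene share a 100-base word with another gene, and neither span overlaps another expressed row.

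Both belong to a short cluster from 35033367 to 35454953 with 5 members. Of these 4 fell and 0 rose (median -0.41, log2), where 35.4% and 17.3% of all genes with a mean of at least 50 did. The other falls were ZNF302, at 571, 551 and 572 normalised counts with DMSO and 498, 441 and 511 with NMS-873, and ZNF599, whose groups overlapped. ZNF181, between these, did not pass (log2 fold change 0.21, adjusted p = 0.0649). Without DMSO replicate 1, or without NMS-873 replicate 1, the cluster had 1 member called higher.

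The cluster from 44029649 to 45004576 moved mostly down. Of its 17 members 9 fell and 1, ZNF222, rose (52.9% and 5.88%; median -0.26, log2), and 10 had all NMS-873 libraries below all DMSO libraries. Of all genes with a mean of at least 50, 35.4% fell, 17.3% rose and 39.3% had all NMS-873 libraries below. Under gene-based factors 7 members were lower and 3 higher (median -0.15), where 22.0% and 29.9% of those genes were. Without NMS-873 replicate 1 the count was 9 and 2. ZNF45 (44416781 to 44439430), among the best expressed, had 1015, 975 and 997 normalised counts with DMSO and 674, 677 and 673 with NMS-873, 1.47-fold lower (-0.56 on the log2 scale with an SE of 0.0624; adjusted p = 1.24e-15 in limma; named after its values were seen). ZNF180 (44979854 to 45004576) had 254, 281 and 245 with DMSO and 156, 169 and 196.5 with NMS-873. ZNF225 (44616334 to 44637027) had 182, 154 and 151 with DMSO and 97.2, 111 and 108 with NMS-873. ZNF576 (44100544 to 44105309), a short protein with 4 fingers and no KRAB pattern, had 160.4, 179.7 and 159.8 with DMSO and 107, 109.6 and 114 with NMS-873. These 3 were 1.5-fold, 1.54-fold and 1.51-fold lower, with adjusted p of 3.26e-08, 1.04e-06 and 2.02e-06 in limma. ZNF284 (44576297 to 44593766) is uncertain: it had 74.0, 92.2 and 85.3 with DMSO and 70.2, 37.2 and 55.8 with NMS-873, 42.5% of its words occur in other transcripts, and it did not pass without the variance trend (adjusted p = 0.0636) or after quantile normalisation (adjusted p = 0.0593). In the same cluster, 8 expressed genes that are not ZNF-numbered had 1 rise and 5 falls, with a median of -0.28.

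ZNF850 and ZNF114 fell outside these clusters. ZNF850 (37205285 to 37263727), with 29 fingers, had 347, 274 and 301 normalised counts with DMSO and 174, 194 and 211 with NMS-873, 1.58-fold lower (adjusted p = 4.52e-11 in limma). Its span overlaps that of ZNF567 on the opposite strand, and the strand setting of the counting is not known here. ZNF114 (48675575 to 48790865) had 80.2, 75.1 and 84.3 with DMSO and 38.1, 54.8 and 54.8 with NMS-873, 1.63-fold lower (adjusted p = 5.47e-05 in limma), and its span overlaps 3 other expressed rows, 2 of them on the same strand.

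By position, members were grouped into stretches in which each ZNF-number gene starts within 500 kb of the one before it. This gave 9 stretches with at least 5 members, holding 144 of them, and 8 with fewer, holding 11. Beside the counts of each stretch stand the 17.3% higher and 35.4% lower of all genes with a mean of at least 50. At the q-arm end, from 57702868 to 58992597, 10 of 33 members rose and 3 fell, with a median of 0.13. The 13 neighbours with other names in the same stretch had 1 rise, 4 falls and a median of -0.12. These neighbours include the related zinc finger genes ZIK1, ZSCAN18 and ZNF587B, which was the 1 rise, so they are not all outside the family. From 52074551 to 54083523, 10 of 32 rose and 4 fell, with a median of 0.05. From 36673188 to 38307940, 4 of 16 rose and 2 fell, with a median of 0.13, beside 7 neighbours with 0 rises, 3 falls and a median of -0.27. The zinc finger genes ZNF585A and ZNF585B are among these 7. In the stretch from 55987699 to 57183151, 3 of 15 members rose and 6 fell (20% and 40%), with a median of -0.16. These shares are near the 17.3% and 35.4% of all genes with a mean of at least 50. The 12 neighbours in it had 1 rise and 7 falls. Rises of members there numbered 1 when DMSO replicate 1 was left out, and 2 when DMSO replicate 2 or the third NMS-873 library was.

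The stretch nearest the centromere held the smallest share of members among the 9. From 19779605 to 24312654 there were 36 ZNF-number genes, of which 6 reached a mean of 50; in the stretch at the q-arm end 33 of 42 did. Of those 6, ZNF430 rose and ZNF101 and ZNF100 fell. In the stretch from 11594242 to 12750912, 10 of 29 were members, and 4 rose and 2 fell.

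With gene-based factors the rises and falls were 6 and 0 in the stretch from 8575462, 1 and 0 from 19779605, 1 and 2 from 35033367, 8 and 1 from 36673188, 14 and 2 from 52074551, 3 and 3 from 55987699 and 16 and 1 from 57702868. Under those factors 29.9% of genes with a mean of at least 50 were higher and 22.0% lower. Single libraries also moved small counts. When DMSO replicate 1 was left out, the stretch from 19779605 had 0 falls in place of 2, and when DMSO replicate 2 was, that from 52074551 had 2 falls in place of 4.

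Adjacent members of a stretch were only weakly alike. Over 138 adjacent pairs, the log2 fold changes had Pearson r = 0.13 and Spearman rho = 0.08 (a description; pairs share members and libraries). Within the downward cluster ZNF222 rose beside ZNF284, and in the stretch from 36673188 ZNF850 fell while ZNF529 rose. The divergent neighbours ZNF829 and ZNF568, whose spans are 37 bases apart, were at 0.14 and 0.35 (log2).

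**Figure D5:**
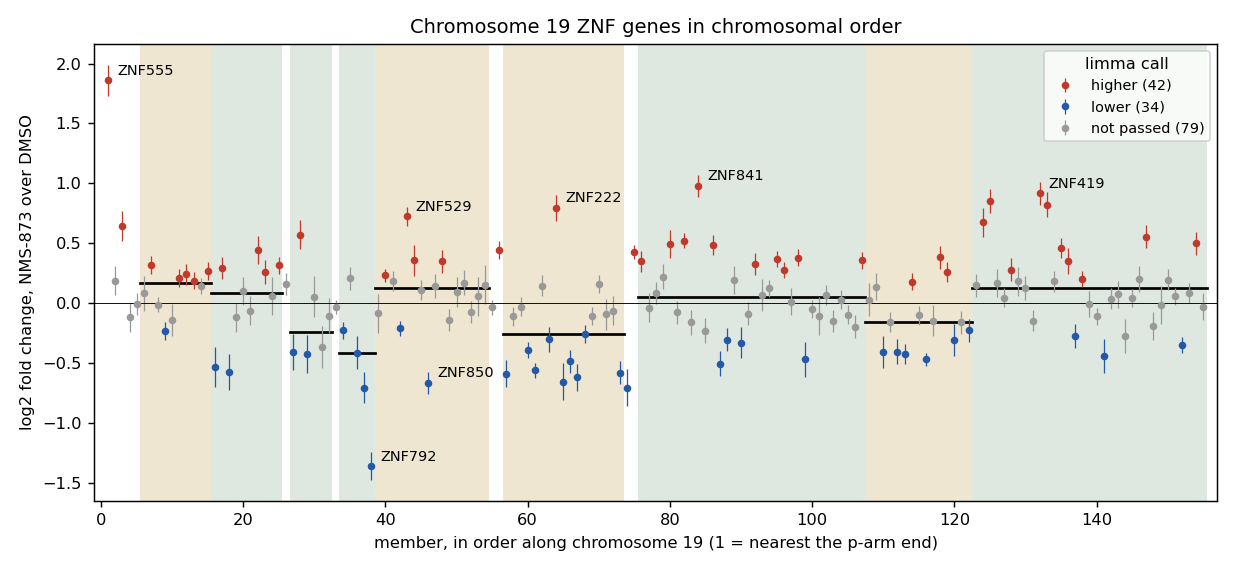
Log2 fold change (NMS-873 over DMSO) with its SE for each of the 155 members in chromosomal order, coloured by limma call; shaded blocks are the 9 stretches with at least 5 members, and black bars are their medians. The medians run from -0.41 in the stretch of ZNF792 to 0.17 in the stretch of ZNF562, and rises and falls are mixed within most stretches.

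In the stretch from 8575462 to 9903856, 5 of the 10 members rose by small amounts and 1 fell, with a median of 0.17. Of all genes with a mean of at least 50, 17.3% were called higher and 35.4% lower. The rises of the stretch were ZNF558, ZNF266, ZNF426, ZNF121 and ZNF562, at log2 fold changes between 0.19 and 0.32, and the fall was ZNF699. Leaving out the first or the second DMSO library, or NMS-873 replicate 3, left 3 rises, and a fit with no variance trend left 2. ZNF562 (9759330 to 9785776) had 412, 461 and 449.5 normalised counts with DMSO and 542, 525 and 525 with NMS-873, a 1.2-fold rise. ZNF121 (9671029 to 9695209) had 541, 458 and 553 with DMSO and 596, 573 and 594 with NMS-873. Neither gene had overlapping groups, while those of ZNF426 overlapped.

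Of the 9 promoter windows in this stretch 5 held TGACGTCA, the palindrome known as the cAMP response element, while 1 of the other 129 member windows did and 1.98% of all 27305 windows. They belong to ZNF121, ZNF266, ZNF426, ZNF561 and ZNF562, all on the minus strand. The sequences are printed with 12 bases on each side and the palindrome in capitals, to show the flanks too. Those of ZNF121, ZNF561 and ZNF562 are the most alike, and ZNF426, and ZNF266 after the palindrome, differ more. ZNF543, from the q-arm end, is the sixth. They are chr19:9584535-9584566, chr19:9435571-9435602, chr19:9538647-9538678, chr19:9621236-9621267 and chr19:9675088-9675119 on the minus strand and chr19:57320466-57320497 on the plus strand (GRCh38.p14, RefSeq).
ZNF121: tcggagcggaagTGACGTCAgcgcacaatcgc
ZNF266: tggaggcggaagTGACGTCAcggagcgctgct
ZNF426: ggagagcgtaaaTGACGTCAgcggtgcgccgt
ZNF561: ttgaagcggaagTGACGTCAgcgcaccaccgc
ZNF562: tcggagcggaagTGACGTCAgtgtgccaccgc
ZNF543: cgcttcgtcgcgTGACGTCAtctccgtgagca
Taking the start site as 0, the palindromes of the 5 neighbours begin between -50 and -7. ZNF561 had 676, 595 and 671 normalised counts with DMSO and 663, 703 and 780 with NMS-873 and did not pass (log2 fold change 0.14, adjusted p = 0.0639), nor did ZNF543 (0.17, adjusted p = 0.228). ZNF558, the largest rise of the stretch (0.32), does not hold the palindrome in its window. Of the 4 rises that do, ZNF562 was called in each of the 18 settings, and ZNF121, ZNF266 and ZNF426 were not. Of the 41 windows of members that rose 4 held the palindrome, of 28 that fell 0 and of 69 that did not pass 2. Those 4 all lie in this same stretch, so they may not be separate observations.

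By stretch, CCAAT was present in 9 of 10 member windows from 11594242 to 12750912, in 6 of 6 nearest the centromere, in 22 of 30 at the q-arm end and in 1 of 15 from 36673188 to 38307940. Among members that rose it was in 53.7% of windows, among those that fell in 42.9% and among the rest in 39.1%. TATAAA was in 2 of 138 member windows and 11.95% of all windows. TGATGNAAN, the letters of a C/EBP-ATF site, was in 2 member windows and 3.67% of all. The ER stress element, searched as CCAAT and CCACG with 9 bases between them and so overlapping CCAAT, was in 1 member window and 0.0806% of all. These windows are GC rich: the median member window had 61.3% G and C and 22 CpG, against 58.3% and 14 over all windows. For 25 members the table has several windows and the first was used, and 17 members had none.

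The 3 members with the highest mean normalised counts were ZNF146, ZNF542 and ZNF507. ZNF146 (36705504 to 36729676), a protein made almost wholly of fingers with no KRAB domain, had 3899, 3858 and 4078 normalised counts with DMSO and 4396, 4655 and 4869 with NMS-873, a 1.18-fold rise (adjusted p = 1.0e-04 in limma). ZNF542 (56879468 to 56891197), which has no coding transcript in GENCODE 29, had 3258, 2917 and 3210.2 with DMSO and 2113, 2323 and 2346 with NMS-873, 1.38-fold lower (adjusted p = 1.54e-14 in limma). ZNF507 had 1344, 1263 and 1294 with DMSO and 1262, 1281 and 1278 with NMS-873; it did not pass and its direction turned with gene-based factors (log2 fold change -0.03, and 0.08 with those factors).

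Members with known roles did not move as a set. ZNF274, which recruits SETDB1 to the ends of other zinc finger genes, had 496, 512 and 532 normalised counts with DMSO and 543, 532 and 523 with NMS-873 and did not pass (log2 fold change 0.06, adjusted p = 0.534); with gene-based factors it did (0.16, adjusted p = 0.0243). ZNF473, a factor of histone pre-mRNA processing, had 919, 902 and 978 with DMSO and 1195, 1262 and 1301 with NMS-873, a 1.34-fold rise (adjusted p = 1.27e-10 in limma). ZNF331, an imprinted KRAB gene, had 467, 446 and 442 with DMSO and 581, 579 and 574 with NMS-873, a 1.28-fold rise (adjusted p = 4.6e-06 in limma). ZNF350, a partner of BRCA1 also called ZBRK1, had 107, 106 and 114 with DMSO and 148, 128 and 193 with NMS-873, a 1.41-fold rise (adjusted p = 1.2e-04 in limma). Both groups were separate in these 3 genes. ZNF224, a KRAB repressor of the aldolase A gene, had 239, 212 and 237 with DMSO and 163, 168 and 158 with NMS-873, 1.4-fold lower (adjusted p = 7.35e-06 in limma). ZNF420, which has been linked to p53, had 224, 223 and 215 with DMSO and 212, 182 and 209 with NMS-873; its groups did not overlap and it did not pass (adjusted p = 0.218). ZNF91, a repressor of SVA retrotransposons with 31 fingers, had 71.0, 48.5 and 56.6 with DMSO and 36.1, 37.2 and 66.2 with NMS-873; its groups overlapped and it missed the threshold (adjusted p = 0.0705 in limma). It passed when DMSO replicate 2 was left out (adjusted p = 0.0277) and when the third NMS-873 library was (adjusted p = 0.00287). ZNF93, a repressor of LINE-1 elements, had a mean of 3.68 and was not a member.

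What the proteins look like did not sort the changes clearly. In the longest coding sequence of GENCODE 29, translated, fingers were counted by the spacing of their 2 cysteines and 2 histidines, and a KRAB domain was looked for by a short pattern of conserved residues, which misses diverged copies. The 154 members with a coding sequence had 1 to 31 fingers with a median of 12. The KRAB pattern was found in 114 members, and in 287 of 19684 coding genes overall. Of those 114, 31 rose and 21 fell (median log2 fold change 0.06), and of the 40 without it 11 rose and 12 fell (median -0.02). Members with 10 to 14 fingers had 23 rises and 13 falls among 68, those with 15 or more 7 and 9 among 43, and those with 1 to 9 had 12 and 11 among 43. Across members the number of fingers and log2 fold change had Spearman rho = -0.07 (n = 154), and gene span and log2 fold change rho = 0.01 (n = 155).

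Related copies and overlapping genes limit some values. For 93 members no 100-base word of their GENCODE 29 transcripts occurs in a transcript of another gene, and for 26 at least 5% do, most in ZNF320 (71.6%) and ZNF468 (52.0%), which share words with each other. Of the 26, 6 rose and 6 fell. The span of 57 members overlaps another row with a mean of at least 10, 23 of them on the same strand; of those 23, 3 rose and 7 fell. Of the 98 members with no overlapping row, 32 rose and 20 fell (median 0.06, log2). The opposite-strand overlaps include those of ZNF45, ZNF224, ZNF225, ZNF473, ZNF529, ZNF146 and ZNF542. ZNF580 and ZNF581 overlap each other on 1 strand and fell together (log2 fold changes -0.41 and -0.43), so these are not separate observations.

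In the corepressor machinery that KRAB proteins recruit, falls outnumbered rises, as they did over all genes. Of 26 listed genes 25 were tested, ZFP57 being too low; 4 rose and 12 fell. Their median was -0.13 (log2) against -0.10 over all genes tested (background 14.9% higher and 33.0% lower). Of genes with a mean of at least 50, 17.3% were higher and 35.4% lower, with a median of -0.09. Under gene-based factors 9 of the 25 were higher and 9 lower (median -0.02), where 29.9% and 22.0% of genes with a mean of at least 50 were. In the fit with no variance trend 3 were higher and 7 lower, where 13.8% and 25.5% of those genes were. ATF7IP, a partner of SETDB1, had 512, 532 and 516 normalised counts with DMSO and 323, 327 and 314 with NMS-873, 1.62-fold lower (adjusted p = 2.25e-16 in limma). FAM208A, the TASOR subunit of the HUSH silencing complex, had 1752, 1697 and 1796 with DMSO and 1218, 1348 and 1395 with NMS-873, 1.33-fold lower (adjusted p = 1.06e-10 in limma). CBX5, which encodes HP1 alpha, had 4468, 4382 and 4000.1 with DMSO and 3067, 3474 and 3468 with NMS-873, 1.28-fold lower (adjusted p = 1.87e-09 in limma). The groups did not overlap in any of the 3. The other falls were SUV39H1, CBX3, CBX1, EHMT2, CHD3, TRIM28, HDAC1, DNMT1 and SUV39H2, at log2 fold changes from -0.34 to -0.13.

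TRIM28, the shared corepressor, lies on chromosome 19 (59055458 to 59062089) and had 8225, 7966 and 8574 normalised counts with DMSO and 7089, 7387 and 7285 with NMS-873, 1.14-fold lower (log2 fold change -0.19, adjusted p = 0.00282 in limma). MORC3, a chromatin ATPase, had 432, 388 and 411 with DMSO and 619, 604 and 612 with NMS-873, a 1.49-fold rise (adjusted p = 3.01e-13 in limma). MORC2, which works with the HUSH complex, had 1666, 1688 and 1677 with DMSO and 1972, 2105 and 2021 with NMS-873, a 1.21-fold rise (adjusted p = 6.06e-06 in limma), and TRIM24 and TRIM33, relatives of TRIM28, were the other rises (log2 fold changes 0.25 and 0.18). SETDB1, DAXX, ATRX, HDAC2, RBBP4, MPHOSPH8, PPHLN1, EHMT1 and SMARCAD1 did not pass.

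At the count threshold, the members just inside were ZNF492, ZNF91 and ZNF571, with means of 51.7, 52.6 and 55.8 and log2 fold changes of 0.05, -0.37 and 0.15. Those just outside were ZNF790, ZNF285 and ZNF784, with means of 46.9, 46.7 and 43.4 and log2 fold changes of -0.08, -0.37 and -0.35.

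At an adjusted p below 0.05, the authors' deposited table calls 51 members, 31 higher and 20 lower, and 14.6% and 27.8% of genes with a mean of at least 50. Those 51 were called here too, with the same sign. For ZNF555 the authors' deposited table gives a log2 fold change of 1.83 and for ZNF792 of -1.38.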

How the data were processed

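Polyadenylated RNA of 6 U2OS libraries was prepared with a stranded kit and sequenced as single reads, per the labels' protocols. The deposited table gives FPKM per library, as settled from its values, the mean normalised count as a signal in units of reads, and the log2 fold change and adjusted p-value of the authors' comparison, per the file headers. Build hg19, featureCounts 1.5.1 and DESeq2 1.16.1 are named in the submitters' processing notes; the aligner and strand setting are not given in the sources used here. Normalised counts were rebuilt as FPKM times the mean normalised count over the mean FPKM of the gene. With the implied size factors 100% of the values came within 0.001 of whole reads, and these factors are those of median-of-ratios scaling on the 92 spike-in rows alone (largest relative difference 3.4e-15), so the scaling is to spike-in RNA. The planned design took the sample columns for normalised counts, so its test was run on the rebuilt ones.

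The test was limma 3.58.1 (R 4.3.3) with an intensity trend, run on log2(normalised count + 1) of the 14889 genes with a mean of at least 10, two-sided, Benjamini-Hochberg over all, at 0.05. This scale understates changes of low genes, and the prior variance had 250.84 degrees of freedom, so the spread came mostly from genes of similar level. Reads carry no molecular identifiers. The script was tested on simulated data. Alternatives were other pseudocounts, filters and scalings, voom on whole reads, FPKM, no trend, a replicate block, each library left out and other stretch gaps. Replicates were compared to look for a library present more than once. They differed by more than sampling noise (chi-square per degree of freedom 1.52 to 7.9), so none was taken as a copy of another and all were kept.

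Members and lists were chosen with earlier results of these data known. Named were 8 genes always (ZNF274, ZNF350, ZNF224, ZNF473, ZNF91, ZNF93, ZNF331, ZNF420), the 8 largest rises and falls with groups that do not overlap, the 3 highest means, the 3 members on each side of the count threshold and, in the corepressor list, the 3 lowest adjusted p in each direction; further genes belong to a described stretch or promoter group and were named after their values were seen. Coordinates are hg19 except promoters (RefSeq, GRCh38.p14; 138 members matched by symbol).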

Additional observations from a re-analysis of the deposited data

How the results depend on the processing

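Of the 155 members, the number higher stayed within 37 to 46 and the number lower within 30 to 33 when any 1 library was left out, and the median log2 fold change within -0.0048 to 0.07; it was below 0 only without DMSO replicate 2. Gene-based factors gave 19 lower members and a median of 0.14, and quantile normalisation 65 higher, 19 lower and a median of 0.16; gene-based factors by construction move the typical gene toward 0, and the cause for quantile normalisation was not tested. Counting only members without an overlapping row gave 20 lower, of fewer members; this alternative and the one on shared words were chosen after seeing the data. With the replicate number as a block 48 were higher and 35 lower; same-numbered libraries did not deviate together (r = 0.0394, -0.0253 and 0.0425), so the numbers were not taken to pair them. ZNF507 turned from -0.03 to 0.075 with gene-based factors. In total 32 higher and 16 lower members were called in every setting. With a 1 Mb gap the last 2 stretches merge (48 members, 13 higher, 9 lower, median 0.0508). The first of them alone had a median of -0.16, over fewer members. The 1 Mb gap also joins ZNF557 and ZNF358 to the stretch of ZNF558 (12 members, 5 higher, 1 lower, median 0.11). With a 250 kb gap the stretch from 55987699 splits into 6 members (0 higher, 3 lower, median -0.28) and 9 (3 and 3, median -0.15). ZNF414, ZNF558, ZNF101 and ZNF175 then each stand as the only member of a stretch. The stretch from 9251056 keeps 8 members, 4 higher and 1 lower.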
